A study of Mus musculus with 18 samples.

Results

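The zQ175 allele was followed across the striatal transcriptome in all 18 mice of the series, as 10 libraries that carried it against 8 that did not. The members of each side were taken from the genotype labels. The 10 were 5 zQ175 mice, which kept both copies of Csnk2a2, the gene of the CK2 catalytic subunit CK2a', and 5 zQ175:CK2a'(+/-) mice, which carried the knock-in together with 1 remaining copy. The 8 were 5 WT mice and 3 CK2a'(+/-) mice with 1 Csnk2a2 copy and unmodified huntingtin alleles. All were 12 to 14 months old and untreated, were labelled C57BL/6, and gave 1 RNA library each from dissected striatum. By the methods, the zQ175 knock-in was heterozygous. The CK2a' line was obtained on a mixed 129/SvEv and C57BL/6J background and crossed with WT and zQ175 mice over generations before the study. Mice of both sexes were used, and the labels give no sex for a library. The methods give mostly females for WT and zQ175:CK2a'(+/-) and mostly males for zQ175 and CK2a'(+/-). Sex thus differed between the groups compared at either CK2a' dose, in opposite directions, and was no term of the main fit. In each gene the zQ175 effect was estimated with a separate term for the number of CK2a' alleles, so that a mouse was compared with others of equal CK2a' dose.

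Huntington's disease follows from an expanded CAG repeat in the huntingtin gene, and the zQ175 mouse carries such an expansion in its own Htt gene. The striatum consists mostly of medium spiny neurons, the GABAergic projection neurons that receive cortical glutamate and nigral dopamine. Those of the indirect pathway carry the dopamine D2 receptor and an adenosine receptor and the peptide enkephalin, and those of the direct pathway carry the D1 receptor with substance P and dynorphin. In knock-in models of the disease these neurons are known to lose transcripts of their own identity genes before many of them die. In RNA of whole striatum, fewer cells of a type and less RNA per cell cannot be told apart.

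Read totals ran from 14176224 to 22702547 in the 8 libraries without zQ175 and from 13612381 to 21168671 in the 10 with it. Levels are given as CPM, the reads of a gene relative to the TMM-scaled total of its library, and genes were called by edgeR's quasi-likelihood test where the p adjusted after Benjamini and Hochberg (FDR) was under 0.1. Transcripts that define the striatum were abundant in every library, with at least 278 CPM of Ppp1r1b and 229 CPM of Penk. The genotype of CK2a' showed in the reads, since Csnk2a2 lay between 29.4 and 37.5 CPM in mice with 2 alleles and between 14.7 and 19.9 CPM in mice with 1 (exact two-sided permutation test over 10 and 8 libraries, p = 4.57e-05, the smallest this design can give; 0.000183 after adjustment over 4 tests). Csnk2a2 cannot tell zQ175 from WT, and the level of Htt, counted over the whole gene, does not read its repeat. A total of 4 libraries were high in transcripts of the choroid plexus, with transthyretin (Ttr) at 1969 CPM in WT 1, 1647 in WT 3, 908 in CK2a'(+/-) 1 and 2904 in zQ175:CK2a'(+/-) 2, and at most 10.5 CPM in each of the other 14. The library zQ175 1 carried the most thalamic marker RNA (1926 summed CPM, at most 1027 elsewhere) and zQ175 5 the most cortical marker RNA (666 summed CPM, at most 416 elsewhere).

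The libraries labelled WT 4 and WT 5 did not follow their label in the genes at issue. Between CK2a'(+/-) and zQ175:CK2a'(+/-) mice, a contrast that no WT or zQ175 library enters except through the shared filter, scaling and estimate of spread, 124 of 20914 genes were called (0.593%). Each of the other libraries was then placed by whether it lay nearer the mean of the one group or of the other on these 124 genes. WT 1, WT 2 and WT 3 lay nearer the zQ175:CK2a'(+/-) mean in 34, 30 and 23 genes, and the 5 zQ175 libraries in 98 to 116. The libraries labelled WT 4 and WT 5 lay nearer it in 98 and 99 genes, in the range of the zQ175 libraries and far above the other WT libraries.

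**Figure D1:**
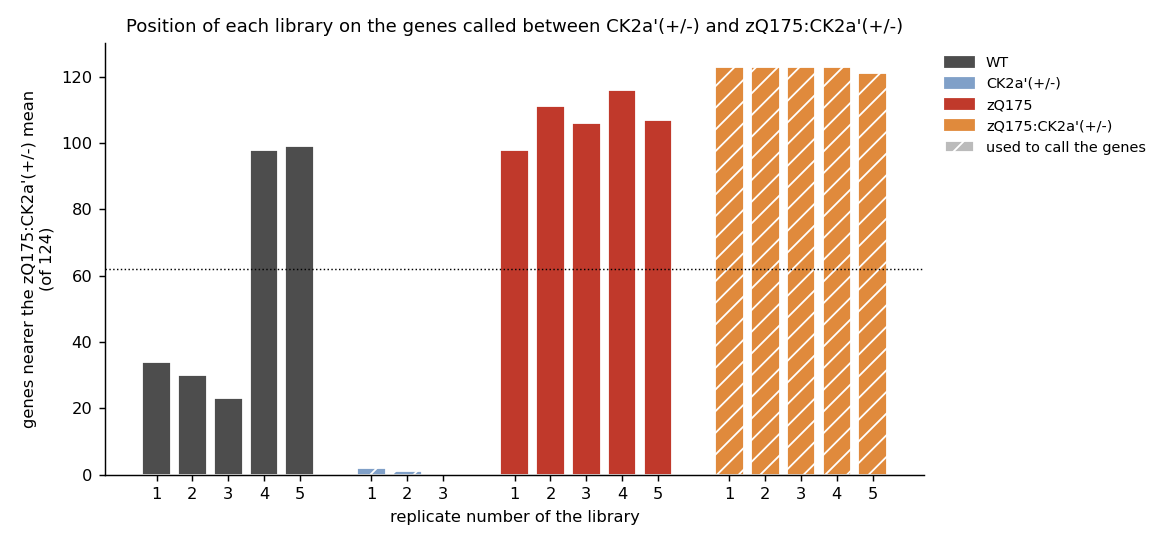
Bars give, for each of the 18 libraries by group and replicate number, how many of the 124 genes called between CK2a'(+/-) and zQ175:CK2a'(+/-) mice lay nearer the zQ175:CK2a'(+/-) mean than the CK2a'(+/-) mean, with a dotted line at the middle of the range. Hatched bars are the 8 libraries the genes were called on; of the WT bars, 3 reach 23 to 34 and the bars of WT 4 and WT 5 reach 98 and 99, beside 98 to 116 for zQ175.

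The same 2 libraries stood apart in the peptide gene of the indirect pathway. The libraries labelled WT 4 and WT 5 had 496 and 491 CPM of Penk, against 795 to 1300.2 CPM in the 6 other libraries without zQ175 and 229 to 582 CPM in the 10 with it. Why these libraries stand where they do was not tested. Their labels were kept, they stayed in the group they are labelled with, and counts over all genes and over gene lists are also given without them. Leaving them out was decided on values of the same genes, which by itself raises the number of calls and lowers the FDR of such genes, so the counts and the FDRs of single genes given without them are descriptions and not tests.

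Of 20914 genes tested, 1039 were called with the zQ175 allele (4.97%), 439 of them higher (2.10%) and 600 lower (2.87%). The median change of all genes was 0.0036 on the log2 scale, and that of the called genes was 0.33 for those higher and -0.45 for those lower. Only 120 of the 1039 changed by more than 1 on the log2 scale, 44 upwards and 76 downwards. By biotype 871 of the 1039 were protein coding, of 14674 such genes tested. Of 1666 genes tested in the provisional class named TEC in the annotation 56 were called, 49 of them as higher. Without WT 4 and WT 5, 1364 of 20629 genes were called (6.61%), 588 higher (2.85%) and 776 lower (3.76%), and 858 of these were among the 1039. Without the 4 libraries high in Ttr, 3 of which are controls, 81 of 21312 were called (0.380%), 19 higher (0.0892%) and 62 lower (0.291%), and 80 of the 81 were among the 1039. The controls left there were WT 2, WT 4, WT 5, CK2a'(+/-) 2 and CK2a'(+/-) 3, so WT 4 and WT 5 weighed more among them. How much of the lower count came from choroid plexus RNA and how much from the controls left was not tested. DESeq2 called 1628. Single libraries moved the count of 1039 by over 1.5 times, to 683 without WT 1, 579 without WT 3 and 479 without CK2a'(+/-) 3.

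**Figure D2:**
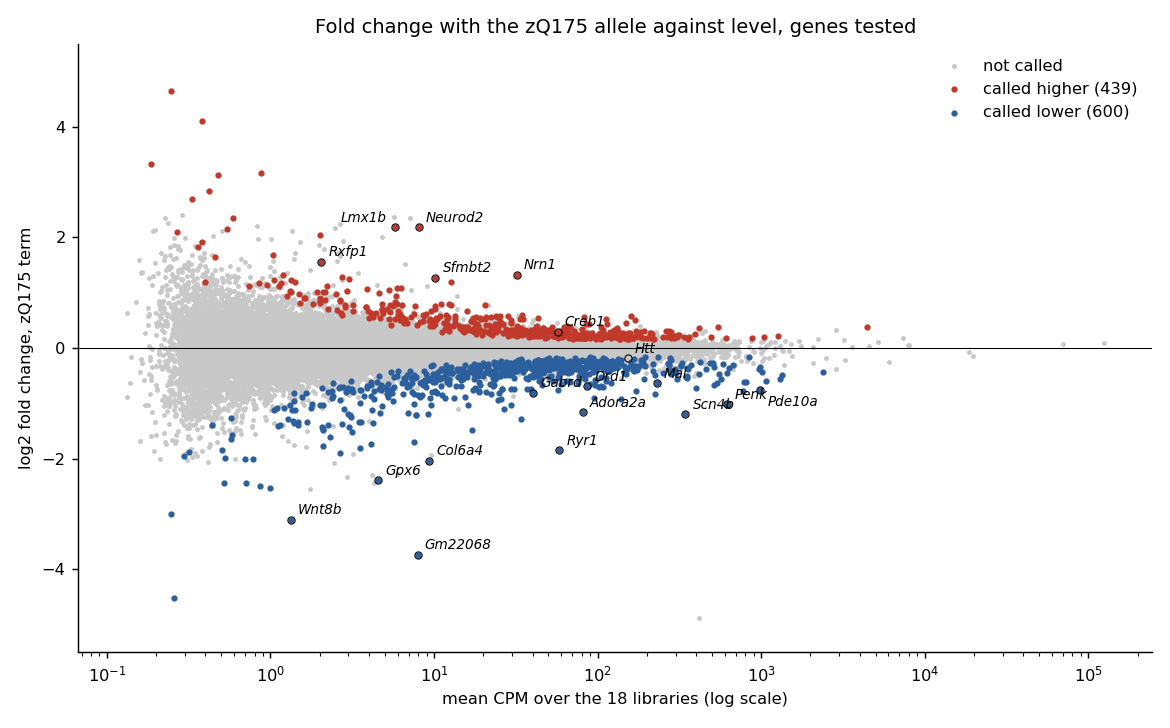
Each point is 1 of 20914 genes, with its mean CPM over the 18 libraries on a log axis and its log2 fold change for the zQ175 allele; red points are the 439 called higher and blue points the 600 called lower, and circled genes are named in the text. Most called genes lie within 1 of zero, Gm22068 and Wnt8b are the lowest of the labelled genes at -3.74 and -3.11, and Lmx1b and Neurod2 the highest at 2.18 and 2.19.

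The 2 CK2a' doses share no library, but both were read from 1 fit with a shared filter, scaling and estimate of spread. A gene with a low spread there is favoured at both doses, so the p-values of the 2 are not independent. Among mice with 2 CK2a' alleles, zQ175 against WT called 230 genes (1.10%), and 187 of these (81.3%) had the same sign in mice with 1 allele, where 59.4% of all genes tested shared their sign. At an unadjusted p under 0.05 with the same sign, 78 of the 230 (33.9%) recurred, against 7.44% of all genes. In the other direction, 113 of the 124 genes called among mice with 1 allele (91.1%) had the same sign among those with 2, and 73 (58.9%) did so at an unadjusted p under 0.05, against 10.2% of all genes. In either direction 13.9% of all genes had an unadjusted p under 0.05 among mice with 2 alleles and 9.19% among mice with 1, and 16.4% did over all mice. A total of 25 genes were called at both doses. The 230 rested on single libraries, with no call left without WT 3 or without zQ175 5 (2367 and 2566 genes at an unadjusted p under 0.05), 10 without WT 1, 77 to 153 without zQ175 1, zQ175 3, CK2a'(+/-) 2, zQ175:CK2a'(+/-) 1 or zQ175:CK2a'(+/-) 3, and 587 without WT 2. The 124 became 6 and 8 without CK2a'(+/-) 2 or 3, 48 without CK2a'(+/-) 1, 28 to 44 without any 1 zQ175:CK2a'(+/-) library, 205 without zQ175 1 and 221 without WT 2. A test of the difference itself called 1 gene (0.00478%), with 1127 at an unadjusted p under 0.05, and among the 1039 genes called for the zQ175 allele 53 had an interaction p under 0.05 (5.10%, against 5.39% of all genes tested). That 1 gene, BC067074, is protein coding. Its log2 fold change was -0.45 ± 0.19 (SE) with 2 CK2a' alleles and 1.34 ± 0.23 with 1, a difference of 1.79 ± 0.29 (edgeR interaction FDR = 0.095).

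Htt lay at 119, 143 and 165 CPM (lowest, median and highest) in the 10 libraries with zQ175 and at 129, 166 and 188 in the 8 without, so that the groups overlapped. Its log2 fold change was -0.19 ± 0.08 (edgeR FDR = 0.21), and the difference in mean log2 CPM was -0.18 (exact two-sided permutation test, p = 0.039, or 0.078 adjusted over 4 tests). With 2 CK2a' alleles the fold change was -0.045 (edgeR FDR = 0.88) and with 1 it was -0.37 (edgeR FDR = 0.17), with an interaction FDR of 0.92. Without WT 4 and WT 5, which had 135 and 129 CPM, the fold change was -0.28 (edgeR FDR = 0.015). Of 14 genes for huntingtin and its interacting proteins, 1 fell and none rose, where 2.87% of all genes fell and 2.10% rose. This was Rasd2, the gene of Rhes, a striatal small GTPase that binds mutant huntingtin, which fell from a mean of 370 to 255 CPM (log2 fold change -0.57, edgeR FDR = 0.027). Sh3gl3 (-0.23, FDR = 0.12) did not pass. When WT 4 and WT 5 were left out, 3 of the 14 were called lower, Rasd2, Htt and Sh3gl3, and none higher, against 3.76% and 2.85% of all genes.

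Around Htt itself on chromosome 5, 222 genes within 10 Mb were tested and 12 were called (5.41%, against 4.97% of all genes), 6 higher and 6 lower. With WT 4 and WT 5 left out, 10 were higher and 8 lower, against 2.85% and 3.76% of all genes. Gm42560, an antisense gene at chr5:34679523-34706831 (GRCm38) beside Htt, had no read in 7 of the 8 libraries without zQ175, 0.28 CPM in the library labelled WT 5, and 0.056 to 1.54 CPM (1 to 25 reads) in all 10 with it. It overlaps Grk4 on the other strand, and without strand-specific counting their reads cannot be told apart. Kmt2c, a histone H3 lysine 4 methyltransferase, was slightly higher (log2 fold change 0.21, FDR = 0.029), Wfs1, an endoplasmic reticulum membrane protein, was lower (-0.49, FDR = 0.030), and Gm15513, which lies within Zfyve28, was lower as well (-0.53, FDR = 0.024).

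Dopamine, adenosine and cAMP signalling held the largest share of lowered genes over all 18 libraries. Of its 25 genes tested 15 fell and none rose, against 2.87% and 2.10% of all genes, and the median log2 fold change was -0.40. Medium spiny neurons use this cascade to turn dopamine and adenosine into protein kinase A activity. Adora2a, the adenosine receptor of the indirect pathway, stood at 33.2, 54.6 and 73.6 CPM (lowest, median and highest) with zQ175 and at 48.9, 125 and 174 CPM without. The 2 low values without zQ175 are those of WT 4 and WT 5 (48.9 and 62.0), and with them the groups overlap. The other 6 libraries, at 120 or more, lie above all 10 with zQ175, and 1.33% of all genes did not overlap between these 6 and 10. Its log2 fold change was -1.16 ± 0.18 (edgeR FDR = 0.0017).

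The receptors and their substrates moved with it. Drd2 fell from a mean of 131 ± 47.0 (SD, n = 8) to 83.5 ± 14.9 CPM (n = 10; edgeR log2 fold change -0.69, FDR = 0.021), and Drd1, the receptor of the direct pathway, from 109 ± 38.8 to 68.4 ± 12.8 CPM (-0.69, FDR = 0.030), so both pathways' dopamine receptors were lower by like amounts. Ppp1r1b encodes DARPP-32, the phosphatase inhibitor that dopamine switches on. It had 278, 594 and 810 CPM with zQ175 and 639, 963 and 1481 without (-0.78 ± 0.15, FDR = 0.010). The related phosphatase regulator Arpp19 (-0.83, FDR = 0.0051) and the striatal G protein regulator Rgs9 (-0.72, FDR = 0.013) were lower too. In each of these 5 genes WT 4 and WT 5 were the lowest libraries of the control side.

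Without WT 4 and WT 5, 17 of the 25 were lower and 1 higher, against 3.76% and 2.85% of all genes. Without the 4 libraries high in Ttr the median stayed at -0.42 with 2 genes called lower (0.291% of all genes), Adora2a and Arpp19. This was a smaller share than in the ion channel (4 of 36) and oligodendrocyte (4 of 15) lists. WT 4 and WT 5 were among the few controls left, with summed levels of 5533 and 5235 CPM here (median 5689 with zQ175). In the oligodendrocyte list they had 6334 and 6890 CPM (median 5326 with zQ175). The part of this in the shares was not tested. In the same fit 18 of the 25 had an unadjusted p under 0.05, as had 2509 of 21312 genes tested. The median was -0.43 at either CK2a' dose. Among mice with 1 allele, a contrast that the WT libraries enter only through the shared filter, scaling and estimate of spread, 15 genes were lower at an unadjusted p under 0.05, against 4.86% of all genes.

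Phosphodiesterases end the cAMP signal. Of 15 tested, 3 fell and 1 rose (2.87% and 2.10% of all genes), and without WT 4 and WT 5, 4 fell and 1 rose (3.76% and 2.85% of all genes). Pde10a, the enzyme most typical of medium spiny neurons, had 449.9, 806 and 909 CPM with zQ175 and 606, 1287 and 1971 without, and WT 4 and WT 5 were again the control libraries inside the zQ175 range (662 and 606). It was lower by a log2 fold change of -0.75 ± 0.17 (edgeR FDR = 0.020), Pde1b by -0.67 (FDR = 0.011) and Pde8a by -0.38 (FDR = 0.057). Pde4d, which overlaps Rps3a3, rose by 0.38 (FDR = 0.040).

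**Figure D3:**
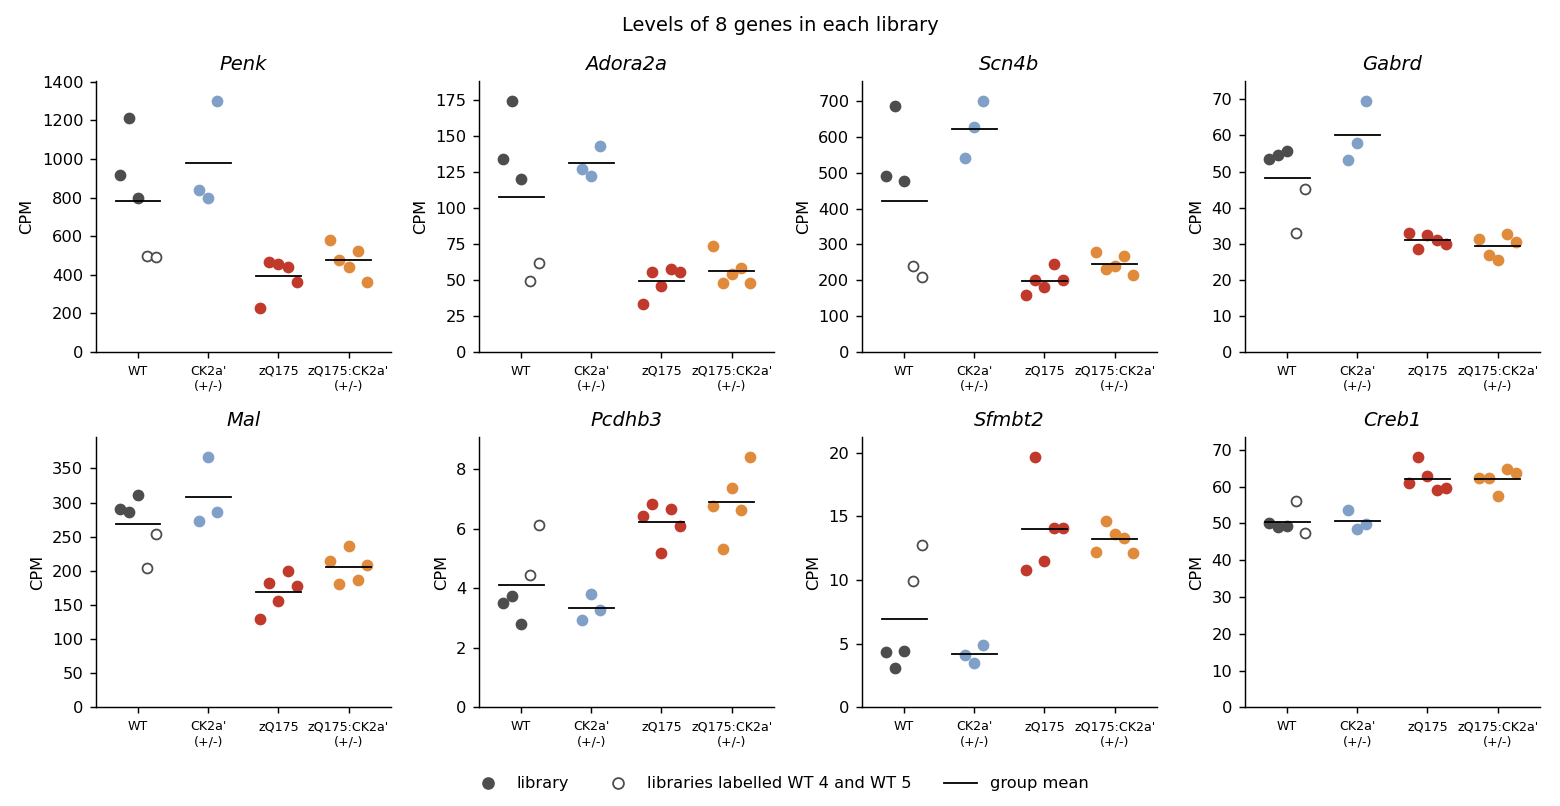
CPM of 8 genes in each library by group, on axes that start at 0, with the group mean as a line and the libraries labelled WT 4 and WT 5 as open circles. Penk, Adora2a and Scn4b of WT 4 and WT 5 lie at the level of the zQ175 libraries, Gabrd and Mal lie lower with zQ175, Pcdhb3, Sfmbt2 and Creb1 higher, and for Gabrd and Creb1 all 10 libraries with zQ175 lie apart from all 8 without.

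Neuropeptides and their receptors changed unevenly, with 5 of 22 lower and 1 higher (2.87% and 2.10% of all genes), and 6 and 1 without WT 4 and WT 5 (3.76% and 2.85%). Penk, which encodes preproenkephalin, the indirect pathway's peptide, was 856 ± 292 CPM on average without zQ175 and 433 ± 97.1 with it (SD; log2 fold change -1.02 ± 0.17, edgeR FDR = 0.0023). Among mice with 2 CK2a' alleles the change was -1.0 and among those with 1 it was -1.04. Tac1, the substance P precursor of the direct pathway, was -0.32 and did not pass (FDR = 0.18). The muscarinic receptor Chrm4 was lower (-0.81, FDR = 0.014), the cannabinoid receptor Cnr1 was lower (-0.92, FDR = 0.021), and the mu opioid receptor Oprm1, to which enkephalin binds, was higher, at 9.62 to 20.6 CPM with zQ175 and 4.63 to 13.6 without (0.80 ± 0.17, FDR = 0.015). Oprm1 overlaps Ipcef1 on the other strand.

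Of 36 ion channels and calcium regulators 14 were lower and none higher, against 2.87% and 2.10% of all genes, with a median of -0.26, and 19 were lower without WT 4 and WT 5, against 3.76%. Scn4b, the sodium channel beta4 subunit of medium spiny neurons, had 492, 687, 478, 239 and 210 CPM in WT 1 to WT 5, 540, 628 and 700 CPM in the 3 CK2a'(+/-) libraries, and at most 278 CPM in any library with zQ175. Its log2 fold change was -1.20 ± 0.16 (edgeR FDR = 0.0011). Ryr1, an intracellular calcium release channel, fell further, from a mean of 97.4 ± 46.7 to 27.3 ± 9.15 CPM (-1.84 ± 0.27, FDR = 0.0014). The calmodulin regulators Pcp4 and Pcp4l1 had smaller changes, -0.78 ± 0.10 and -0.49 ± 0.06 (FDR = 0.00068 in both), and here the 10 libraries with zQ175 lay below all 8 without, WT 4 and WT 5 included. In Pcp4 the highest library with zQ175 had 163 CPM and the lowest without 164. Without the 4 libraries high in Ttr, 4 of the 36 were called, which were these 4.

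Among genes for synaptic receptors and scaffolds the shares called were near that of all genes (4.97%), with 1 of 14 GABA-A subunits, 1 of 17 ionotropic glutamate receptors and 1 of 15 scaffolds. Gabrd, the delta subunit of extrasynaptic GABA-A receptors, had the smallest p of all genes tested. It lay at 25.6 to 32.9 CPM with zQ175 and at 33.0 to 69.5 without, the lowest control being WT 4 (33.0), and was called at either CK2a' dose (-0.64 and -1.03; over all libraries -0.81 ± 0.10, edgeR FDR = 0.00059). The other 13 GABA-A subunits did not pass. The ionotropic glutamate receptor was higher, the scaffold was Shank2, higher by 0.24 (FDR = 0.034), and of 7 metabotropic glutamate receptor genes none, with 1 at an unadjusted p under 0.05 and none by DESeq2. Grik2 (-0.25, FDR = 0.14), Dlg4, which encodes PSD-95 (-0.20, FDR = 0.14), Shank3 (-0.22, FDR = 0.16) and Grm3 (-0.25, FDR = 0.29) did not pass. Without WT 4 and WT 5, Grik2 (-0.36, FDR = 0.0021), Dlg4 (-0.26, FDR = 0.032) and Shank3 (-0.31, FDR = 0.015) did, and 4 scaffolds and 2 ionotropic receptors were then lower, 1 of each higher, against 3.76% and 2.85% of all genes, and no metabotropic receptor called.

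Transcription factors that specify medium spiny neurons gave 1 higher and 1 lower gene of 20, against 2.10% and 2.87% of all genes, with a median of -0.09. The higher one was Ikzf2 (0.47, FDR = 0.060), which overlaps Gm28112, and the lower one Klf16 (-0.35, FDR = 0.062). Meis2 (-0.33, FDR = 0.14) and Foxp2 (0.26, FDR = 0.19) did not pass. Of the 20, 3 were lower and 1 higher without WT 4 and WT 5, against 3.76% and 2.85% of all genes. Among 25 immediate early genes, which neurons switch on with activity, 1 was lower and none higher, against 2.87% and 2.10% of all genes. The lower one was Dusp1, which overlaps Ergic1 (-0.44, FDR = 0.083). It did not pass when WT 4 and WT 5 were left out (-0.41, FDR = 0.15), and 2 others of the 25 were then called lower, against 3.76% of all genes, Dusp14 and Homer1, named here after their values were seen. Bdnf, at 0.11 to 14.5 CPM with zQ175 and 0.27 to 1.82 without, had a change of 1.71 and did not pass (FDR = 0.11). At 2 CK2a' alleles it was called (2.72, FDR = 0.073), at 1 it was not (0.21, FDR = 0.97), the interaction FDR was 0.92, and DESeq2 called it over all mice (FDR = 0.0936). Its 2 highest libraries were zQ175 5 (14.5) and zQ175 1 (10.1), the libraries with most cortical and most thalamic marker RNA, and the part of that RNA in its level was not tested.

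The beta protocadherins, neuronal adhesion molecules encoded in a cluster on chromosome 18, held the largest share of raised genes over all 18 libraries. Of 22 genes 9 were higher and none lower, against 2.10% and 2.87% of all genes, 20 had a positive fold change, and the median was 0.40. Leaving out WT 4 and WT 5 gave 16 higher and none lower, against 2.85% and 3.76% of all genes, with a median of 0.60. Pcdhb3 had 5.17 to 8.41 CPM with zQ175 and 2.79 to 6.12 without, and the 2 highest controls were WT 5 (6.12) and WT 4 (4.44). Its log2 fold change was 0.78 ± 0.16 (edgeR FDR = 0.011). Pcdhb17 was higher by 0.54 (FDR = 0.011), Pcdhb20 by 0.56 (FDR = 0.024) and Pcdhb21, which overlaps Pcdhb22, by 0.79 (FDR = 0.030). The summed level of the 22 was 255 to 350.5 CPM with zQ175 and 167 to 299 CPM without, and it was 282 and 299 CPM in WT 4 and WT 5 against at most 246 CPM in the other 6. Among mice with 1 CK2a' allele 14 of the 22 were higher at an unadjusted p under 0.05, against 4.33% of all genes, and among mice with 2 alleles 10 were, against 6.79%. Without the 4 libraries high in Ttr none was called, the median fell to 0.23, and 9 had an unadjusted p under 0.05, as had 2509 of 21312 genes tested. The genes of this cluster are alike in sequence, and reads that map to several places were removed before counting, so their counts are uncertain.

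Lists for chaperones (23 genes), cholesterol synthesis (22 genes) and proteins encoded in the mitochondrial genome (13 genes) held no called gene, with 6, 4 and 0 at an unadjusted p under 0.05. DESeq2 called 3, 0 and 0 of them, where it called 1628 of the 17166 genes it gave an FDR. By edgeR without WT 4 and WT 5 the counts were 1, 1 and 0, against 6.61% of all genes. Hspa1b, the inducible HSP70, had a change of 1.40 (FDR = 0.11) and Hsp90aa1 of 0.17 (FDR = 0.10), while Dnajb2 had -0.23 (FDR = 0.18). The small heat shock protein gene Cryab had -0.35 (FDR = 0.11), with -0.66 among mice with 2 CK2a' alleles, where it was called (FDR = 0.044), and 0.08 among those with 1 (interaction FDR = 0.63), and DESeq2 called it over all mice (FDR = 0.0496).

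**Figure D4:**
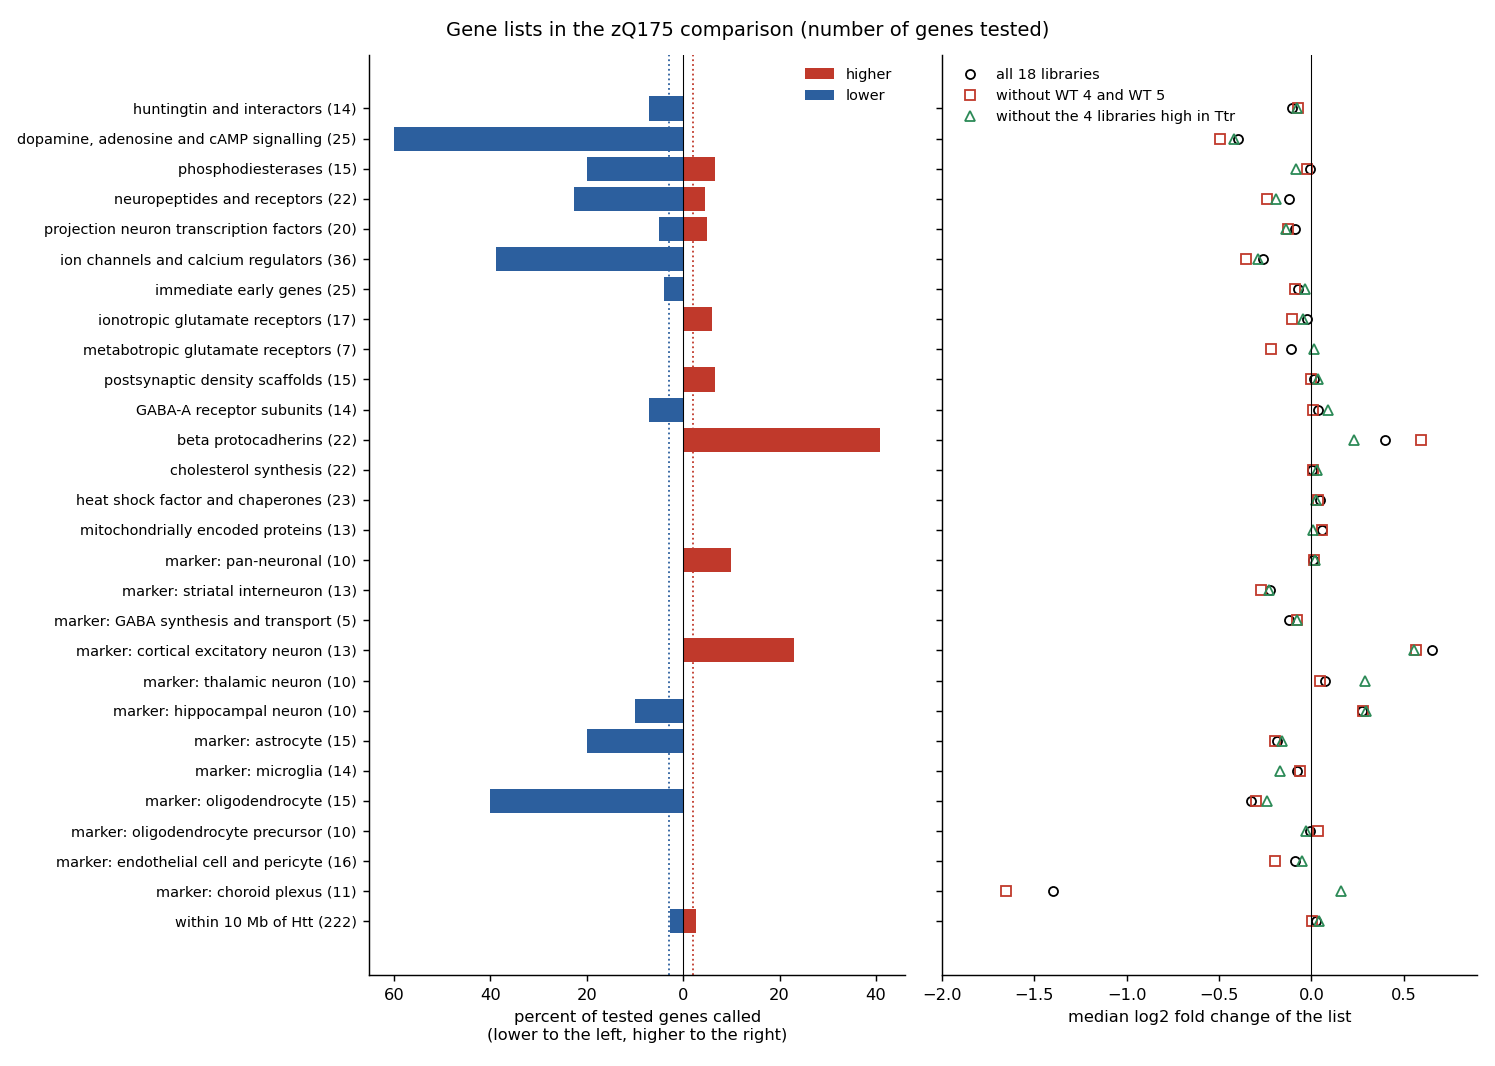
The left panel gives, for each of 28 lists with the number of genes tested in parentheses, the percent called lower (left) and higher (right) with the zQ175 allele, with dotted lines at the shares of all genes (2.87% and 2.10%). The right panel gives the median log2 fold change over all 18 libraries (circles), without WT 4 and WT 5 (squares) and without the 4 libraries high in Ttr (triangles); dopamine, adenosine and cAMP signalling lies at -0.40 and the beta protocadherins at 0.40, and the choroid plexus list moves from -1.40 to 0.16 when the 4 libraries are left out.

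Oligodendrocyte markers, mostly myelin genes, were lower in 6 of 15 genes and higher in none, against 2.87% and 2.10% of all genes, with a median of -0.33 and all 15 fold changes negative. Mal, a membrane proteolipid of myelin, had 130, 184 and 237 CPM with zQ175 (lowest, median and highest) and 204, 286 and 367 without, a log2 fold change of -0.63 ± 0.09 (edgeR FDR = 0.0014). Cldn11, the claudin of myelin tight junctions, was lower by -0.59 (FDR = 0.0014), Mobp by -0.60 (FDR = 0.0020), Mbp by -0.44 (FDR = 0.014) and Trf by -0.33 (FDR = 0.057). The summed level of the 15 was 4147 to 6381 CPM with zQ175 and 6334 to 8624 without, with WT 4 at 6334 and WT 5 at 6890. WT 4 was thus the lowest control and WT 5 in the middle of the controls, and 6 genes were lower without them, against 3.76% of all genes. Without the 4 libraries high in Ttr, 4 were lower, against 0.291% of all genes, Mal, Cldn11 and Mobp among them. At 2 CK2a' alleles 11 of the 15 were lower at an unadjusted p under 0.05, against 7.10% of all genes, and at 1 allele 4 were, against 4.86%. An interaction p under 0.05 was seen for 2 of the 15, against 5.39% of all genes. None of the 10 oligodendrocyte precursor markers was called, with 1 at an unadjusted p under 0.05 and none by DESeq2, and 1 was higher without WT 4 and WT 5, against 2.85% of all genes.

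Other marker lists bear on what else the dissected tissue held. Astrocyte markers were lower in 3 of 15 genes, Ndrg2 (-0.39, FDR = 0.012), Glul, which encodes glutamine synthetase (-0.37, FDR = 0.019), and Aldh1l1 (-0.26, FDR = 0.077), against 2.87% of all genes lower. Without WT 4 and WT 5, whose summed astrocyte markers were the lowest of the controls (4205 and 4382 CPM, others 4932 or more), 7 of the 15 were lower, against 3.76% of all genes. Without the 4 libraries high in Ttr none was (4 at an unadjusted p under 0.05, as were 2509 of 21312 genes). The sums with zQ175 were 4124 to 4774 CPM. None of 14 microglia, 16 endothelial and pericyte, 13 interneuron or 5 GABA synthesis and transport genes was called by edgeR, with 5, 1, 4 and 0 at an unadjusted p under 0.05, and none was called without WT 4 and WT 5. DESeq2 called 2 of the microglia and 2 of the interneuron genes lower, where it called 872 of 17166 genes lower. Among mice with 2 CK2a' alleles, however, 3 microglia genes were lower, where 1.10% of all genes were called in either direction, among them the complement genes C1qa (-0.64, FDR = 0.071) and C1qb (-0.62, FDR = 0.095), which stood at 0.035 and -0.079 among mice with 1 allele. An interaction p under 0.05 was seen for 5 of the 14 microglia genes, against 5.39% of all genes, and none of the 5 passed after adjustment over all genes. Among 10 pan-neuronal genes Map2 was higher (0.22, FDR = 0.034), and 2 were without WT 4 and WT 5, against 2.10% and 2.85% of all genes. Cortical excitatory neuron markers were higher in 3 of 13, against 2.10% of all genes, with a median of 0.65 over all mice, 1.21 at 2 CK2a' alleles and -0.04 at 1. The called ones were Neurod2, Nrn1 and Tbr1 (0.84, FDR = 0.095). Their summed level was 212 to 666 CPM with zQ175 and 157 to 281 without, and without the library zQ175 5 the median was 0.20. In the absence of WT 4 and WT 5, 2 were higher, against 2.85% of all genes.

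No thalamic marker was called, with or without WT 4 and WT 5, and the 10 had a median of 0.71 at 2 CK2a' alleles and -0.69 at 1. Of 10 hippocampal markers 7 had a positive fold change, with a median of 0.27, and the 1 called gene, Wfs1, was lower, also without WT 4 and WT 5 (against 2.87% and 3.76% of all genes). DESeq2 called 2 of the 10 higher and 1 lower, where it called 756 higher and 872 lower of 17166 genes. One of the 2 markers called higher was C1ql2 (1.62, FDR = 0.0431), which edgeR did not call over all mice (1.61, FDR = 0.15) but did at 2 CK2a' alleles (2.97, FDR = 0.059), with -0.015 at 1, and whose highest value, 10.3 CPM, was in zQ175 5 (at most 2.53 elsewhere). The summed hippocampal markers were 612 to 1025 CPM with zQ175, highest in zQ175 5, and 631 to 879.8 CPM without. The 11 choroid plexus markers all had negative fold changes, with a median of -1.40 and none called (0 at an unadjusted p under 0.05, 1 by DESeq2), and their summed level was 188 to 2837 CPM without zQ175 and 186 to 4518 CPM with it. The part of choroid plexus, cortical or thalamic RNA in the counts of called genes was not tested beyond leaving the 4 libraries out. Without those 4, calls were left in 5 of the lists, those of dopamine, adenosine and cAMP signalling, neuropeptides (Penk), ion channels, GABA-A subunits (Gabrd) and oligodendrocytes.

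**Figure D5:**
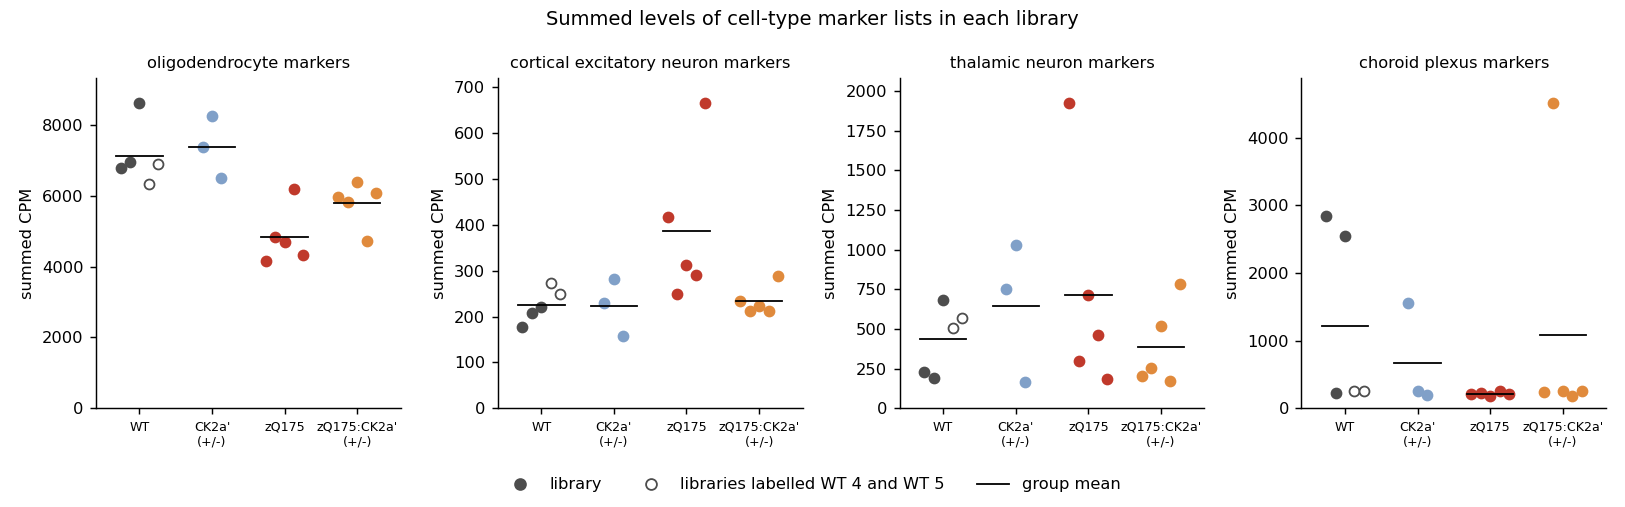
Summed CPM of 4 marker lists in each library by group, on axes that start at 0, with group means as lines and the libraries labelled WT 4 and WT 5 as open circles. Oligodendrocyte markers run from 4147 to 6381 CPM in the 10 libraries with zQ175 and from 6334 to 8624 in the 8 without; single libraries stand out for cortical (zQ175 5, 666), thalamic (zQ175 1, 1926) and choroid plexus markers (4 libraries at 1560 or more).

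The genes of largest change were taken among called genes with a mean of at least 1 CPM. The 10 largest increases were Neurod2, Lmx1b, Crnde, Gm37725, Rxfp1, Nrn1, Zfp773, Gm9403, Sfmbt2 and Sstr3, between 2.19 and 1.25 on the log2 scale, and the 10 largest decreases Gm22068, Wnt8b, Gpx6, Col6a4, Abhd11os, Ryr1, Sec14l3, Vwa7, Slc4a11 and Ddit4l, between -3.74 and -1.71. The promoters of Neurod2, Wnt8b and Gpx6 are printed, because these are the genes on either side whose level moved most among those with a promoter in RefSeq. Each is 250 bases before to 50 after a transcription start, 5′ to 3′ on the gene's strand, from RefSeq's GRCm38.p6 annotation. Capitals mark TGACG or its complement CGTCA, the shorter form of the cAMP response element to which CREB1 binds, a motif searched for on both strands after the full element, TGACGTCA, was found at none of the 14 of the 20 genes for which RefSeq lists a promoter.
Neurod2 (chr11:98329596-98329895, minus strand): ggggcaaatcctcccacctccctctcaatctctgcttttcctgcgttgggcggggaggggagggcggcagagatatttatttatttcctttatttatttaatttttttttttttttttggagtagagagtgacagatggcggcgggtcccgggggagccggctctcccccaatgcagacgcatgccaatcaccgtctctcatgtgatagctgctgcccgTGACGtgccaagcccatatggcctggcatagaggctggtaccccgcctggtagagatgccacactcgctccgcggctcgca
Wnt8b (chr19:44493222-44493521, plus strand): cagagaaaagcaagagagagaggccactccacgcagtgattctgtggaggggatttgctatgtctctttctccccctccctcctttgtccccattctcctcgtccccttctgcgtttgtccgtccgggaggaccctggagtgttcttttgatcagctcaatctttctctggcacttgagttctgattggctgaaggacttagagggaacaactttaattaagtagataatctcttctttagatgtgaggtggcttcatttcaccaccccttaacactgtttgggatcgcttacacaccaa
Gpx6 (chr13:21311953-21312252, plus strand): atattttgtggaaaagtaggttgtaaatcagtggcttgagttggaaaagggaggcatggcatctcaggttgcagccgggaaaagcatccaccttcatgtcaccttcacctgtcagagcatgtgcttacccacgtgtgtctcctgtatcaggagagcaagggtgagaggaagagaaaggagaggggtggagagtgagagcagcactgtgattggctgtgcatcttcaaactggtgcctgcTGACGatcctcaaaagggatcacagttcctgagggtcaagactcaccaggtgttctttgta

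The short motif begins 31 bases before the start in Neurod2 and 11 before it in Gpx6, and the Wnt8b window holds none. Of the 14 genes 6 hold it, and it is common, in 33.2% of the promoters of genes tested, 32.4% of those of genes called lower and 34.2% of those of genes called higher. The full element was in 3.39%, 4.22% and 4.00% of these. A match is a stretch of letters and not a binding site.

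Neurod2, a transcription factor of excitatory cortical neurons, had 0.45 to 1.73 CPM in the 6 controls other than WT 4 and WT 5, 9.77 and 9.22 CPM in those 2, and 4.41 to 42.5 CPM with zQ175. Its log2 fold change was 2.19 ± 0.54 (edgeR FDR = 0.033), and without WT 4 and WT 5 it was 3.47. The 5 zQ175:CK2a'(+/-) libraries, whose cortical marker sums were 212 to 288 CPM against 157 to 281 CPM in the controls, had 7.11 to 13.0 CPM of Neurod2. Neurod2 is itself one of the markers summed, and the part of cortical RNA in its level was not tested. Lmx1b, a LIM homeobox factor known from midbrain dopamine and serotonin neurons, had the same pattern, at 0 to 0.61 CPM in 6 controls, 9.86 and 6.53 CPM in WT 4 and WT 5, and 3.20 to 11.8 CPM with zQ175. With all 18 libraries its change was 2.18 ± 0.70 and near the threshold (FDR = 0.098), and without the 2 it was 4.80. Sfmbt2, a Polycomb group gene, was 10.8 to 19.7 CPM with zQ175, 9.95 and 12.7 CPM in WT 4 and WT 5, and 3.13 to 4.87 CPM in the other 6 controls (1.27 ± 0.23, FDR = 0.0051).

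Crnde, a noncoding RNA gene on chromosome 8 that overlaps Gm21817, rose from a mean of 0.90 to 2.90 CPM (2.05 ± 0.44, FDR = 0.017), by 1.06 with 2 CK2a' alleles and 4.53 with 1 (interaction FDR = 0.19). Rxfp1, the relaxin receptor, rose from 0.99 to 2.88 CPM (1.56, FDR = 0.030), with its 2 highest values in zQ175 1 (7.69) and zQ175:CK2a'(+/-) 5 (4.27). Nrn1, which encodes the synaptic protein neuritin and overlaps Fars2, was 26.3 to 82.9 CPM with zQ175 and 2.07 to 40.7 without (1.33, FDR = 0.057), the 2 highest controls being WT 5 and WT 4. The somatostatin receptor Sstr3 (1.25, FDR = 0.058), the zinc finger gene Zfp773 (1.33, FDR = 0.062) and the genes Gm37725, which overlaps Gm20754 (1.68, FDR = 0.027), and Gm9403, a pseudogene (1.28, FDR = 0.015), completed the increases.

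Among the decreases, Wnt8b, a Wnt ligand, had 2.59 to 4.87 CPM in 6 controls (40 to 84 reads), 0.044 and 0.19 CPM in WT 4 and WT 5, and 0 to 0.86 CPM with zQ175 (-3.11 ± 0.63, edgeR FDR = 0.012). Gpx6, a glutathione peroxidase, had 2.98 to 16.1 CPM in those 6 controls, 1.55 and 1.30 CPM in WT 4 and WT 5, and 0.16 to 2.49 CPM with zQ175 (-2.40 ± 0.44, FDR = 0.0071). Col6a4, a collagen VI chain, had 15.4 to 22.8 CPM, then 3.24 and 2.55 CPM, then 0.98 to 9.92 CPM in the same order (-2.04 ± 0.37, FDR = 0.0065). Ddit4l, an inhibitor of mTOR signalling, was 9.92 to 21.4 CPM in the 6 controls, 4.00 and 3.20 CPM in the 2, and 2.62 to 5.94 CPM with zQ175 (-1.71 ± 0.25, FDR = 0.0014). In each of these 4 genes, as in Neurod2, Lmx1b and Sfmbt2, the libraries with zQ175 did not overlap with the 6 controls, where 1.33% of all genes did not. The same held for Crnde, Nrn1, Zfp773, Gm9403, Ryr1, Abhd11os, Sec14l3, Vwa7 and Slc4a11. All were picked for their change in these data, and the 6 controls were chosen after values were seen, so this is a description and not a test.

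Vwa7 (-1.78, FDR = 0.0017), the lipid-binding protein gene Sec14l3 (-1.80, FDR = 0.012), the membrane transporter gene Slc4a11 (-1.74, FDR = 0.015) and Abhd11os (-1.9, FDR = 0.0051), which overlaps Abhd11 on the other strand, were lower as well. The small nuclear RNA Gm22068 (-3.74, FDR = 0.0071) ranged from 0.79 to 71.6 CPM without zQ175 and from 0.22 to 3.26 with it.

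Of the 1039 called genes, 32 did not overlap at all between the 10 libraries with zQ175 and the 8 without, 18 higher and 14 lower, and no other gene tested was without overlap (0.153% of all). The changes of these genes were mostly small, and the following were named after their values were seen. Besides Gabrd, Pcp4 and Pcp4l1 they included Car2, the carbonic anhydrase of oligodendrocytes (-0.64 ± 0.09, edgeR FDR = 0.0011), which stood at 73.0 to 118 CPM with zQ175 and 123 to 192 without. Ckb, brain creatine kinase, was 438 to 609 CPM with zQ175 and 643 to 906 without (-0.45 ± 0.06, FDR = 0.0014). Fth1, the ferritin heavy chain, was 777 to 1014 CPM and 1077 to 1462 CPM (-0.43 ± 0.06, FDR = 0.0014). Higher without overlap were the transcription factor gene Creb1 (0.30 ± 0.05, FDR = 0.0040), at 57.3 to 68.1 CPM with zQ175 and 47.4 to 56.1 without, and Sox11, a factor of immature neurons, at 24.7 to 32.5 and 14.8 to 24.1 CPM (0.56 ± 0.09, FDR = 0.0023). The membrane protein gene Lrrn3 (0.60, FDR = 0.0023) and the imprinted noncoding RNA Kcnq1ot1 (0.36, FDR = 0.0016) did the same. All 7 were also called without the 4 libraries high in Ttr. Chl1, a neural adhesion molecule, overlapped through WT 1 alone, at 79.9 to 135 CPM with zQ175 and 54.3 to 80.4 without (0.56 ± 0.08, FDR = 0.0011). Without WT 4 and WT 5, 240 of the 1039 genes did not overlap, and 279 of all genes tested (1.33%).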

How the data were processed

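Striatal RNA of 18 mice, 1 library each, was sequenced in pairs of short reads from a stranded total RNA kit. As the methods and the submitters' processing notes give it, the authors trimmed reads (FastQC, Trimmomatic), aligned them to GRCm38 with HISAT2 2.1.0, dropped reads that were unmapped, mapped in duplicate or below a mapping quality limit, and counted genes with Subread 1.6.2; the strand setting of the counting is not given in the sources used here. The removal of reads with several equal matches lowers the counts of near-identical genes. The values deposited by the authors are raw read counts per gene for 55421 genes, 37580 of them with any count, and totals of 13612381 to 22702547 per library. Symbols were matched for 55154 identifiers.

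The members and lists were chosen with earlier results of these data known. Libraries were grouped by label. Genes were kept by edgeR's filterByExpr over the 4 genotypes (20914 genes), scaled by TMM and tested with edgeR 4.0.16 in R 4.3.3 (quasi-likelihood, terms for zQ175 and for CK2a' alleles; Benjamini-Hochberg FDR under 0.1). A fit of the 4 genotypes gave the contrasts at each CK2a' dose and the interaction. DESeq2 1.42.0 and limma 3.58.1 were alternatives, with other filters and scalings, an FDR of 0.05, Xist as a covariate, a replicate block, and each library left out. Leaving out WT 4 and WT 5, or the 4 libraries above 100 CPM of Ttr, was chosen after seeing the data. The fit was tested on simulated data. Genes named were Htt and Csnk2a2, up to 4 of smallest FDR in each list and within 10 Mb of Htt, the 10 largest increases and decreases among called genes of the same sign at both doses with a mean of at least 1 CPM, those called in the interaction, and 8 projection neuron genes; others are said to be chosen after their values were seen, as were Mbp, Trf and the genes named only as overlapping another. Some genes that meet these rules are not reported here. Same-numbered libraries of different groups did not deviate together, so the numbers do not pair mice. Each mouse gave its own library, so p-values measure the spread between mice.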

Additional observations from a re-analysis of the deposited data

Results flagged for a closer look

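In 58 groups of 8 or 10 libraries, over 30 genes, a library stood farther from the rest of its side than Dixon's 95% limit in 8 cases, which came from 5 libraries. Chance passes this limit in about 1 of 20 groups. Among the libraries with zQ175, zQ175 5 had 42.5 CPM of Neurod2 (13.0 in the next). The library zQ175 1 had 7.69 CPM of Rxfp1 (4.27 in the next), and at the low end 36.1 CPM of Drd1 (60.0 in the next) and 449.9 CPM of Pde10a (679 in the next). The library zQ175 2 had 7.24 CPM of Gm9403 (4.30 in the next) and 19.7 CPM of Sfmbt2 (14.6 in the next). For the small nuclear RNA Gm22068, zQ175:CK2a'(+/-) 1 had 3.26 CPM (1.35 in the next), and without zQ175, WT 5 had 71.6 CPM (18.9 in the next). The zQ175 effect on BC067074 differed between 1 and 2 CK2a' alleles by 1.79 on the log2 scale (edgeR interaction FDR = 0.095).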

How the results depend on the processing

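The counts of called genes moved with the processing more than the directions did. Counts are given for the zQ175 allele over all mice, then with 2 CK2a' alleles, with 1, and for the interaction, against 1039, 230, 124 and 1. At FDR 0.05 they were 484, 51, 27 and 0, with DESeq2 1628, 847, 327 and 15, and without the 4 libraries high in Ttr 81, 1, 14 and 0. With no filter on low counts the last 3 counts were 451, 297 and 10, and without WT 4 and WT 5 they were 515, 291 and 0. A replicate block gave 676, 98 and 12 for the first 3, although same-numbered libraries correlated at -0.136 to 0.120 in their deviations, over 0.1 in 2 of 24 pairs, so they share only a number. With Xist as a covariate the counts were 1228, 161, 75 and 0 (956 at an unadjusted p under 0.05 in the interaction). At FDR 0.05 that fit called 2 genes with 2 alleles, against 51. In the interaction limma-voom called 0 (1177 at an unadjusted p under 0.05). Without the CK2a'(+/-) group 280 were called over all mice. Fitted alone, WT and zQ175 gave 0 (2337 at an unadjusted p under 0.05) and the other pair 461. The cause of these shifts was not tested.

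Leaving out 1 library at a time gave 479 to 1170 over all mice, 0 to 587 with 2 alleles, 6 to 221 with 1 and 0 to 2 for the interaction. The sign turned in genes that had not been called. Without zQ175 1 the thalamic markers Gbx2, Tcf7l2, Slc17a6 and Lef1 were at -0.49, -0.31, -0.40 and -0.29, and at most 0.72, 0.68, 0.84 and 0.34 without another library. Lef1 was -0.014 with limma-voom and -0.0052 without WT 2. Over the libraries left out, mt-Atp8 ran from -0.011 to 0.16. Without the CK2a'(+/-) group mt-Nd4l was -0.0005385 and BC067074 -0.45, and Sostdc1 was 1.10 without the 4 libraries high in Ttr. Of the called genes, Tbr1 and Lmx1b each lost the call without any of 13 libraries, Dusp1 without any of 12, Aldh1l1 6, Ikzf2, Sstr3 and Zfp773 5 each, Pde8a and Trf 3 each, Klf16, Nrn1 and Pde4d 2 each, and Neurod2 1.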
